A study of Mus musculus with 75 samples.

Results

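Collagens are the main structural proteins of the extracellular matrix, and the genes described here are all those whose symbol in the gene count tables has the form Col, a type number, the letter a and a chain number. There were 41 such genes among 21625 symbols found in both tables. By textbook family they comprised 11 fibrillar collagens (types I, II, III, V, XI, XXIV and XXVII), 8 basement membrane collagens (type IV and the multiplexins XV and XVIII), 4 chains of type VI and 18 others (fibril-associated, short-chain, anchoring and transmembrane). The genes were chosen by name and not by any value. RNA-seq was done on 75 libraries of mouse epididymal white adipose tissue (eWAT), inguinal white adipose tissue (iWAT) and gastrocnemius muscle. Each mouse had a nuclear genome (n) and a mitochondrial genome (mt) of strain C57 or C3H, in 1 of 4 combinations: the wild type C57BL6/J, written C57n:C57mt here, the wild type C3H/HeN, written C3Hn:C3Hmt, and the mitochondrial-nuclear exchange (MNX) lines C57n:C3Hmt and C3Hn:C57mt, in which the mitochondrial DNA of the other strain stands beside an unchanged nuclear background. All mice were weaned onto chow, and either stayed on it or ate a high-fat diet (HFD) from week 6 to week 12 to 13 of age. On chow there were 15 eWAT, 16 iWAT and 16 muscle libraries, and on HFD 14 of each fat depot and none of muscle. By genotype these form 20 groups, 15 of 4 libraries and 5 of 3, from 43 animals by the titles; 20 animals supplied eWAT and iWAT alike. The labels do not give the sex. Whole tissue was used, so the cells that made the RNA are not known.

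A collagen molecule is a triple helix of chains that are hydroxylated, folded and trimmed before they assemble outside the cell. Fibrillar types I and III, made mainly by fibroblasts, bear tensile load, and type V sits in the core of their fibrils and limits their width. Type IV forms the sheet of the basement membrane that surrounds each adipocyte, myofibre and vessel, type VI forms beaded filaments next to it, and types XV and XVIII lie at its border. In white adipose tissue, the matrix is remodelled when fat cells enlarge, and type VI collagen is known for its part in adipose fibrosis.

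The promoters of 4 members on which the results turn are shown here: Col1a2 and Col3a1, which rose on HFD in eWAT, Col8a1, with the largest rise among the members called there, and Col5a3, whose levels differed between nuclear backgrounds in iWAT on chow and in muscle. RefSeq promoter entries (build GRCm38.p6) were matched for 33 of the 41 members. Each sequence is the 250 bases before the annotated start, written 5′ to 3′ on the gene's strand, so that the last base printed stands at −1. Capitals mark TATAAA (searched on the gene's strand), CCAAT (searched on both strands) and GGGCGG with its reverse complement CCGCCC.
Col1a2, chr6:4505368-4505617, plus strand: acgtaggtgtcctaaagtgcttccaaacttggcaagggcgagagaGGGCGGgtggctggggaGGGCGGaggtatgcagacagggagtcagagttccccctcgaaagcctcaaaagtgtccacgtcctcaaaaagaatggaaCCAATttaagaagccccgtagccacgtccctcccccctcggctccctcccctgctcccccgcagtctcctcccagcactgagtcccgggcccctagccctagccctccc
Col3a1, chr1:45311288-45311537, plus strand: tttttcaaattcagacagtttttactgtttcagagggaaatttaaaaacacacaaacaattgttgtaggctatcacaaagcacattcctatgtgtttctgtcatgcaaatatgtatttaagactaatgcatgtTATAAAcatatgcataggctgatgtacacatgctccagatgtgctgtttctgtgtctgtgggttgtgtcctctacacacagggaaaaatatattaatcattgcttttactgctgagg
Col8a1, chr16:57754738-57754987, minus strand: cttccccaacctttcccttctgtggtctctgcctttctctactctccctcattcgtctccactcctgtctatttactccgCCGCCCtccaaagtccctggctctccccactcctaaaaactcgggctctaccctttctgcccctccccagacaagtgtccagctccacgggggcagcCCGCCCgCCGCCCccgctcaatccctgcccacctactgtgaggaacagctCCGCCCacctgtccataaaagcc
Col5a3, chr9:20815068-20815317, minus strand: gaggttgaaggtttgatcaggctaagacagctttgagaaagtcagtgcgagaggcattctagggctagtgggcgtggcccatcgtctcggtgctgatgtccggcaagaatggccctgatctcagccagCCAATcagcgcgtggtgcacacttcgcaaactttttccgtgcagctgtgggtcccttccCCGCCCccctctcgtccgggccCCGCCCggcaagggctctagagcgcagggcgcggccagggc
The Col1a2 window held CCAAT with its first base at −109 and GGGCGG at −205 and −188. In Col3a1 the only match was TATAAA at −117. The Col8a1 window held CCGCCC at −170, −73, −66 and −23, and that of Col5a3 held CCAAT at −122 and CCGCCC at −63 and −41. No matches overlapped each other. Among all 32851 promoter windows of this length, 7.59% held TATAAA, 33.8% CCAAT and 32.7% GGGCGG on either strand, so the TATAAA of Col3a1 was the least frequent of these matches. These matches are descriptions of the sequence and no factor's binding was measured.

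Depth was 18.68 ± 2.29 M expected counts per library in eWAT on HFD (mean ± SD, M for mega), 24.77 ± 2.83 in eWAT on chow, 19.01 ± 2.75 in iWAT on HFD, 23.24 ± 1.61 in iWAT on chow and 24.12 ± 2.75 in muscle. Run and lane are read here from codes in the library titles. By these codes all chow libraries shared 1 run and the HFD libraries the other 3, so diet and run cannot be told apart. On chow the lane follows the tissue and, with the exception of 1 eWAT library, the nuclear background, so nucleus and lane cannot be told apart there either. In 7 eWAT libraries (6 of 15 on chow, 1 of 14 on HFD) the summed level of 11 epididymis genes was 73.6 to 38100 CPM (counts scaled to library size, for this sum alone by the plain total), against at most 29.7 CPM in the other eWAT libraries; these 7 were set aside in an alternative fit, and its values are given where they bear on a result. Adipocyte markers were high in both depots (summed CPM of 5 genes 3480 to 31700) and the 5 skeletal muscle markers in muscle (252000 to 364000). Some iWAT libraries also held lymphocyte or skeletal muscle RNA: the 6 lymphocyte genes summed to 4.91 to 1470 CPM and the 5 muscle genes to 5.76 to 15600 CPM there.

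Collagen transcripts took up a larger share of fat than of muscle libraries. The 41 genes together made up 0.906 ± 0.482% of the expected counts in eWAT on chow (mean ± SD, n = 15), 1.41 ± 0.432% in eWAT on HFD (n = 14), 0.996 ± 0.402% in iWAT on chow (n = 16), 1.26 ± 0.367% in iWAT on HFD (n = 14) and 0.118 ± 0.0233% in muscle (n = 16). The fibrillar genes supplied the largest part of this in every tissue and diet, with 0.661 ± 0.307% of counts in eWAT on HFD and 0.0762 ± 0.0188% in muscle. Basement membrane collagens gave 0.447 ± 0.0945% and 0.0215 ± 0.00353% in those tissues, and type VI chains 0.27 ± 0.0771% and 0.0162 ± 0.00231%. Per kilobase of exon, Col3a1, the single chain of type III, ranked highest in eWAT on HFD at 291 CPM per kb, followed by Col4a1 at 228 and Col6a1 at 217. In muscle, Col3a1 (56.7 CPM per kb), Col1a2 (46.0) and Col1a1 (45.7) were close together by this length. Per kb of the longest transcript, Col1a1 there stood at 0.478 of Col1a2 and 0.595 of Col3a1, so their spacing and order depend on the length used. Col25a1, a transmembrane collagen best known from neurons, was near 0 in every tissue, with a mean of at most 0.0491 CPM and no count in any iWAT chow library.

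**Figure D1:**
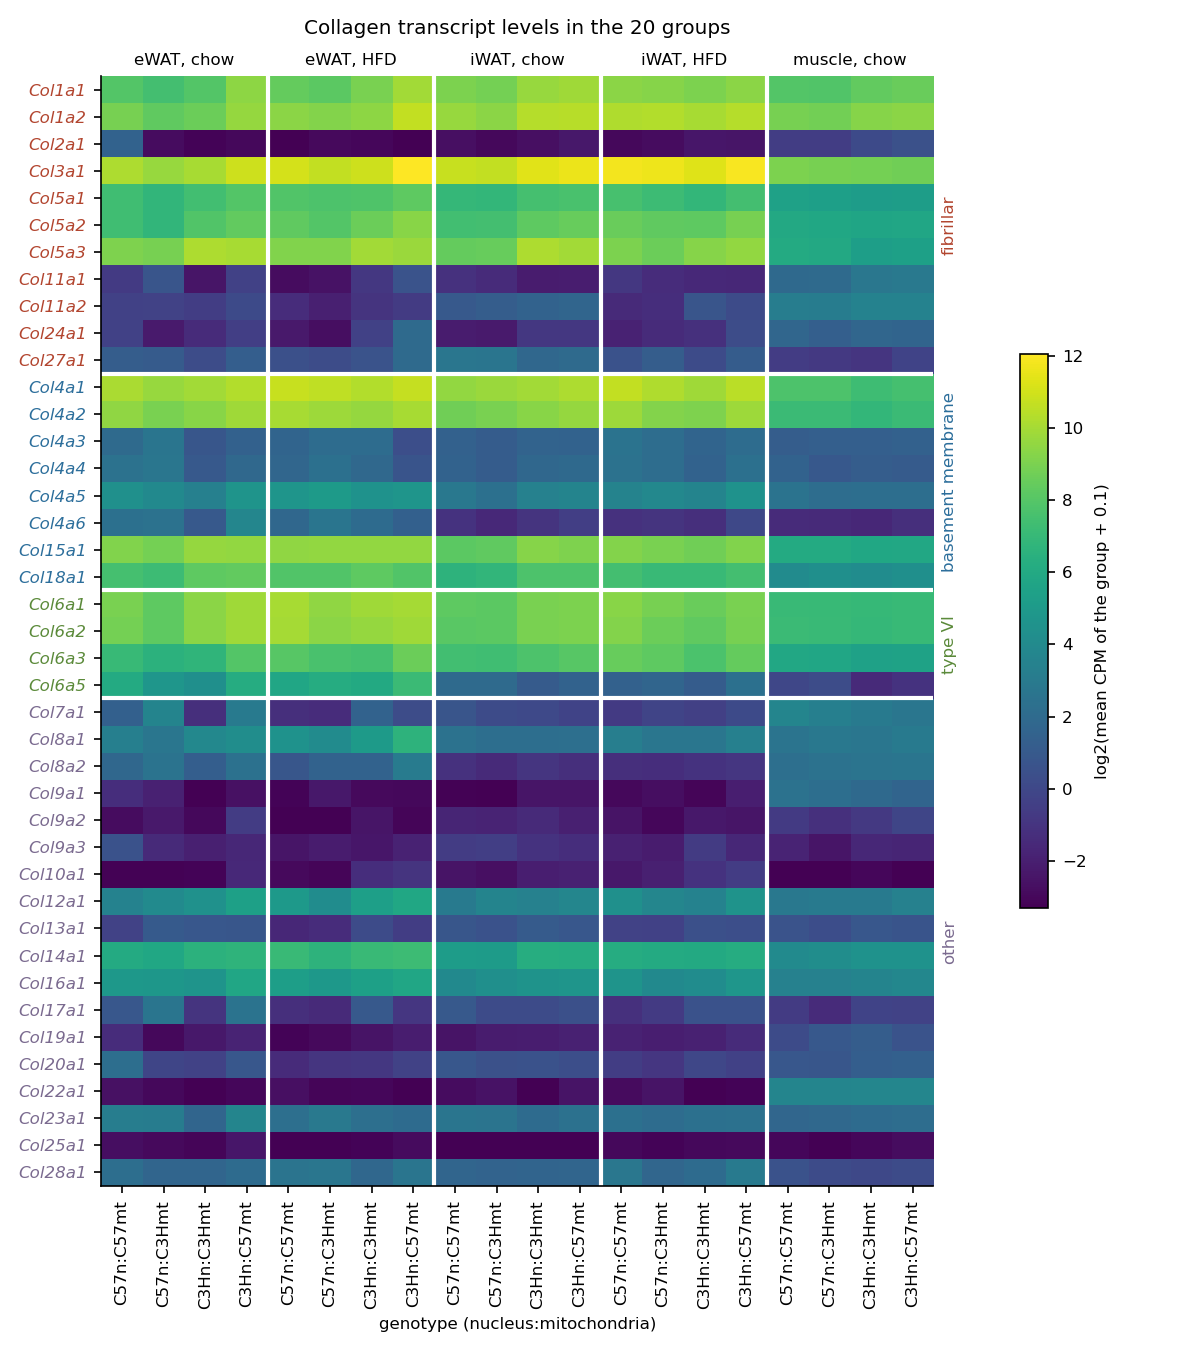
Level of each of the 41 collagen genes (rows, ordered by class) in each of the 20 groups (columns), as log2 of the group's mean CPM plus 0.1. Lighter cells are higher. Basement membrane and type VI genes, Col3a1 and the type V chains are darker in the muscle columns, and Col22a1 is lighter there, at 13.1 CPM against 0.0286 CPM in eWAT on chow.

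HFD was compared with chow within each depot, averaged over the 4 genotypes, to show which collagens differ with diet. In eWAT Col1a1, Col1a2 and Col3a1, the type V chain Col5a2, 3 of the 4 type VI chains and Col8a1 rose on HFD. A gene is called here when its Benjamini-Hochberg adjusted p in edgeR's quasi-likelihood test is below 0.05, adjusted over all genes tested. Of the 35 members that passed the filter on low counts in eWAT, 12 were called higher and 6 lower on HFD. Over all 17687 genes tested, 18.5% were called higher and 22.9% lower. The 6 that did not pass were Col2a1, Col9a1, Col9a2, Col19a1, Col22a1 and Col25a1. The median log2 difference was 0.32 over the tested members and −0.10 over all genes. In bulk tissue, fewer cells of a type and less RNA per cell cannot be told apart.

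Type I collagen is the chief fibril former, and both of its chains rose in eWAT. Col1a1 (ENSMUSG00000001506.9, mm9 chr11:94797538-94814356) lay at 212, 383 and 1060 CPM (lowest, median, highest of 14) on HFD and at 134, 251 and 1110 CPM (of 15) on chow. Its log2 difference was 0.65 ± 0.19 (SE), with an edgeR adjusted p of 0.00936. With run as a covariate it was 0.45 and was not called (edgeR adjusted p = 0.201). Most HFD libraries lay above the chow median and the ranges overlap; 1 chow library, of C3Hn:C57mt, lay above every HFD library. Col1a2 lay at 439, 746 and 1840 CPM on HFD and 259, 399 and 1090 CPM on chow, a log2 difference of 0.82 ± 0.15 (edgeR adjusted p = 1.99e-04). Col3a1, which forms the thin reticular fibres that often run with type I, lay at 1060, 2210 and 5080 CPM on HFD and 398, 1170 and 2850 CPM on chow. This was a rise of 0.96 ± 0.23 (edgeR adjusted p = 0.00204). Col5a2, a type V chain, rose by 0.96 ± 0.24 (397 ± 161 against 211 ± 135 CPM, mean ± SD; edgeR adjusted p = 0.00389). Its partner Col5a1 did not pass (0.57 ± 0.26, adjusted p = 0.0873), and Col5a3, the third type V chain, showed a difference of −0.07 ± 0.31 (adjusted p = 0.893). In all, 4 of 10 tested fibrillar genes were called higher and 1 lower.

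Of the 4 type VI chains, 3 were called higher. Col6a3, the chain from whose end the fragment endotrophin is cut, lay at 130, 235 and 414 CPM on HFD and at 36.6, 127 and 338 CPM on chow. It rose by 0.90 ± 0.20 (edgeR adjusted p = 0.00132). Col6a1 rose by 0.74 ± 0.24 (954 ± 253 against 604 ± 378 CPM; adjusted p = 0.0153) and Col6a5 by 0.98 ± 0.23 (82.2 ± 43.6 against 49.3 ± 33.2 CPM; adjusted p = 0.00201). Col6a2 stood at 864 ± 248 against 598 ± 395 CPM, with a difference of 0.62 ± 0.26 that missed the threshold (adjusted p = 0.0591). All 4 type VI chains thus lay higher on average on HFD, with overlapping libraries.

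Among the basement membrane collagens only Col4a5, an X-linked chain of the minor type IV trimers, was called (26.9 ± 8.85 on HFD against 18.8 ± 9.33 CPM on chow, log2 difference 0.65 ± 0.18, edgeR adjusted p = 0.00655). The major chains Col4a1 (1560 ± 324 against 1040 ± 509 CPM, 0.60 ± 0.25, adjusted p = 0.0578) and Col4a2 (958 ± 230 against 717 ± 390 CPM, 0.46 ± 0.26, adjusted p = 0.154) did not pass. Col15a1 (0.28 ± 0.29, adjusted p = 0.457) and Col18a1 (0.14 ± 0.17, adjusted p = 0.544), the multiplexins that carry the restin and endostatin fragments, did not pass either. With the trend of the fold changes on G+C content and gene length removed, Col4a1, Col4a2, Col5a1, Col6a2 and Col16a1 were called as well, and the split of called members became 16 higher and 3 lower, where 13.1% and 17.3% of all genes were called in that fit. The G+C content of aligned reads was itself lower on HFD (48.01 to 49.56%, median 48.83%) than on chow (48.98 to 50.16%, median 49.39%) in eWAT, and its part in these differences was not tested further.

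Among the remaining collagens, the sparse Col10a1 stood at 1.83 and was not called (edgeR adjusted p = 0.09). Of the called ones, Col8a1 had the largest rise. It encodes a short-chain collagen of hexagonal networks, known from vessel walls and Descemet's membrane of the cornea. Its level was 14.8, 27.1 and 143 CPM on HFD (lowest, median, highest) and 5.1, 11.3 and 25.7 CPM on chow. The log2 difference was 1.56 ± 0.17 (edgeR adjusted p = 9.42e-07). The highest of these values came from C3Hn:C57mt mice, whose 3 HFD libraries were at 50.2, 105 and 143 CPM. The fibril-associated Col12a1 (37.0 against 23.0 CPM, 0.75 ± 0.21, adjusted p = 0.00819) and Col14a1 (132 against 80.2 CPM, 0.72 ± 0.16, adjusted p = 0.00173) rose too, as did Col28a1 (0.57 ± 0.17, adjusted p = 0.0107). The 6 members called lower were sparse in fat. Col17a1, an epithelial hemidesmosome collagen, fell from a mean of 3.77 to 0.78 CPM and Col7a1, the anchoring fibril of skin, from 6.04 to 1.17 CPM, and Col20a1 (−1.71 ± 0.48), Col13a1 (−1.64 ± 0.38), Col9a3 (−1.55 ± 0.62) and Col11a2 (−1.20 ± 0.40) were called lower as well. The call of Col11a2 ended without C57n:C57mt chow replicate 3 (−0.72, adjusted p = 0.055).

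These falls moved with the libraries that held epididymal RNA, most of which are chow libraries. Without those 7 libraries, 13 members were called higher and 2 lower of 34 tested (20.7% and 21.3% of all genes), and 12 members were called in both fits. Col7a1, Col9a3, Col11a2, Col17a1, Col20a1 and Col28a1 lost their call. Col16a1 (0.64), Col24a1 (2.09) and, as lower, Col5a3 (−0.43) gained one. Of the members called lower among all libraries, only Col13a1, a transmembrane collagen of cell junctions, was still called there (−1.21, edgeR adjusted p = 0.0134). With run as a covariate, which can adjust only between the HFD runs, 7 members were called, all higher (9.22% of all genes were called higher and 7.17% lower). These were Col1a2, Col3a1, Col4a5, Col6a3, Col6a5, Col8a1 and Col14a1. Col1a1 (0.45, edgeR adjusted p = 0.201), Col5a2 (0.81, adjusted p = 0.079) and Col6a1 (0.61, adjusted p = 0.167) were among those that lost their call.

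**Figure D2:**
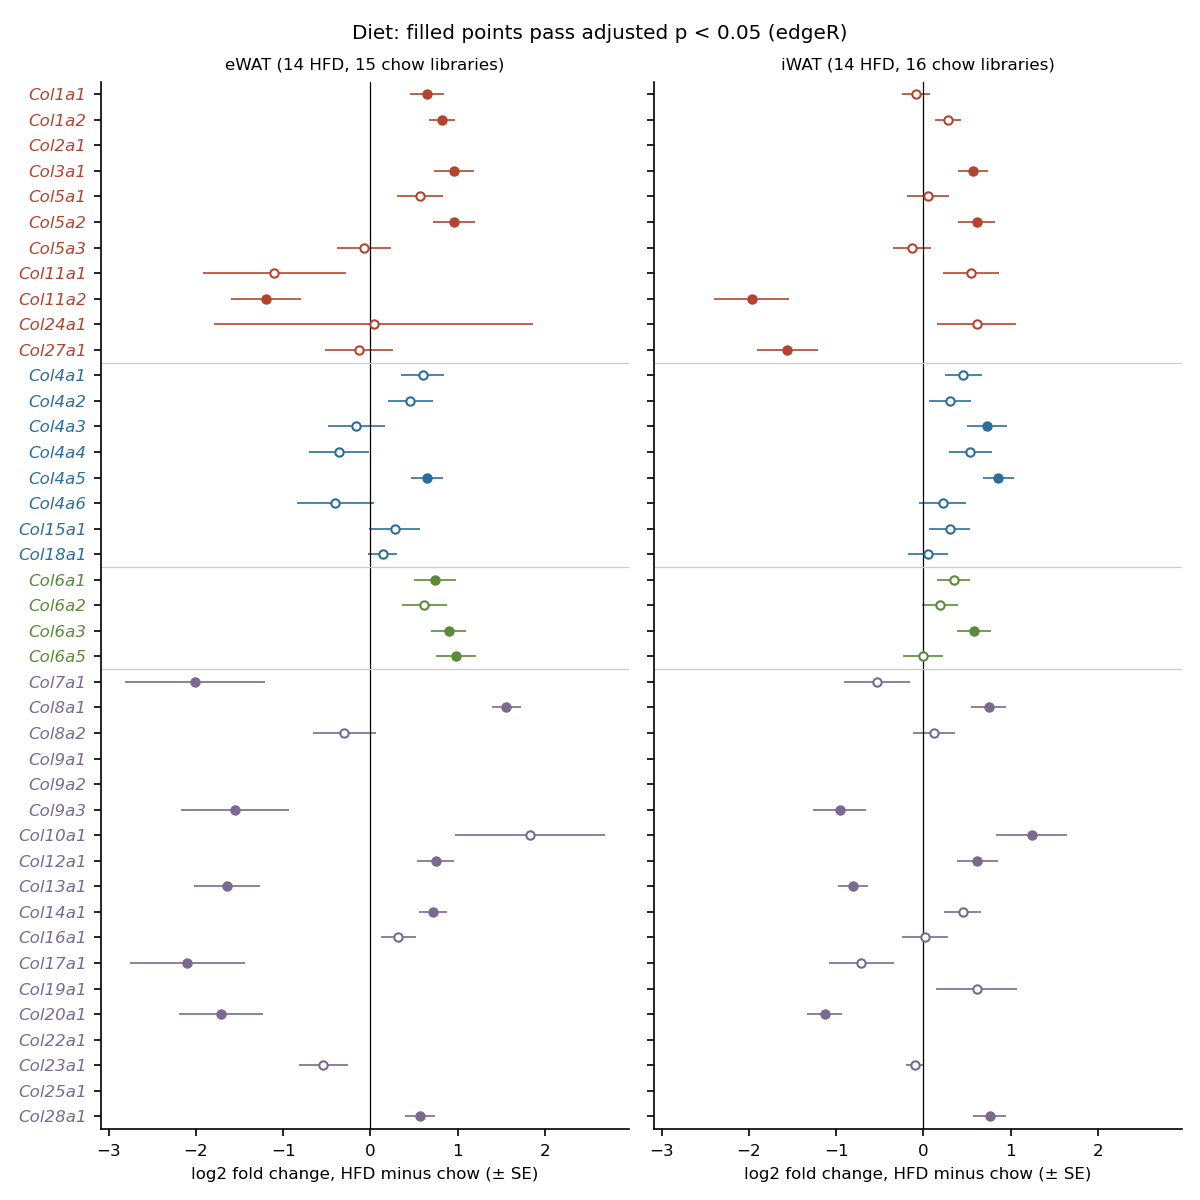
Log2 difference between HFD and chow for each tested collagen gene in eWAT and iWAT (points, with bars of 1 SE; filled points have an edgeR adjusted p below 0.05). The type I, III and VI genes lie right of 0 in eWAT, Col8a1 farthest among the called genes at 1.56, and sparse genes such as Col17a1 at −2.10 lie left of it.

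Genes that build, cross-link and break down collagen were read from lists of known members. Their counts stand beside 18.5% of all genes called higher and 22.9% called lower on HFD in eWAT. In eWAT on HFD, 10 of 24 tested genes of procollagen processing were called higher and none lower, led by Plod2, the lysyl hydroxylase of collagen telopeptides (1.22 ± 0.13, edgeR adjusted p = 3.91e-07). Among the 6 cross-linking genes, 4 were called higher, led by Lox, the lysyl oxidase (1.58 ± 0.20, adjusted p = 3.87e-06), and Loxl2 (1.22 ± 0.24, adjusted p = 4.60e-04). Degradation genes were called higher in 7 of 12 cases and lower in 1: the inhibitor Timp1 rose by 1.74 ± 0.38, the collagenase Mmp13 by 1.65 ± 0.35 and Ctsk, cathepsin K, by 1.36 ± 0.31, while Timp4 fell by 0.74. Of the 8 tested collagen receptors, 5 were called higher, led by the discoidin receptor Ddr2 (1.56 ± 0.32). Without the libraries with epididymal RNA, the counts called higher were 5, 3, 8 and 5 in the same order, beside 20.7% of all genes.

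Markers of other cells moved with diet in eWAT. All 6 macrophage markers were called higher on HFD, with a summed level of 370 to 2900 CPM (median 895) against 149 to 1230 CPM (median 336) on chow; none of them was at 0. Of the 8 fibroblast and progenitor markers, 4 were called higher, with a summed level of 1400 to 2920 CPM (median 2270) against 957 to 2190 CPM (median 1640). The part of either in the collagen differences was not tested.

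In iWAT, the type III chain, a type V and a type VI chain and Col8a1 rose on HFD, and the type I chains did not pass. Of 36 tested members, 9 were called higher and 5 lower, where 21.4% and 16.2% of all 16884 genes were. Col2a1, Col9a1, Col9a2, Col22a1 and Col25a1 did not pass the filter. The median log2 difference was 0.29 over the tested members and 0.01 over all genes. Col3a1 rose by 0.57 ± 0.17 (edgeR adjusted p = 0.0116), with 941, 3430 and 4970 CPM on HFD and 908, 2320 and 3820 CPM on chow (lowest, median, highest of 14 and 16). Col1a1 stood at 630 ± 157 on HFD and 696 ± 274 CPM on chow (−0.08 ± 0.16, adjusted p = 0.746) and Col1a2 at 1230 ± 261 and 1060 ± 389 CPM (0.28 ± 0.15, adjusted p = 0.132). Type I chains thus did not pass in iWAT, while the type III chain did. Col5a2 (0.61 ± 0.21, adjusted p = 0.026), Col6a3 (312 ± 95.2 against 208 ± 82.0 CPM, 0.58 ± 0.19, adjusted p = 0.0182) and the minor type IV chains Col4a5 (15.1 ± 5.81 against 8.78 ± 3.78 CPM, 0.86 ± 0.18, adjusted p = 5.08e-04) and Col4a3 (0.73 ± 0.23, adjusted p = 0.0153) rose. Col8a1 rose here too, from 4.88 ± 1.40 to 8.26 ± 2.91 CPM (0.75 ± 0.20, adjusted p = 0.00486), and so did Col28a1 (0.76 ± 0.19), Col12a1 (0.62 ± 0.23) and, at a mean of 0.277 CPM, Col10a1 (1.24 ± 0.41).

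The major chains of types IV, XV and XVIII did not pass in iWAT, nor did Col6a1 and Col6a2. The log2 differences were 0.46 for Col4a1 (edgeR adjusted p = 0.0872), 0.31 for Col4a2 (0.314), 0.35 for Col6a1 (0.164), 0.19 for Col6a2 (0.499), 0.30 for Col15a1 (0.301) and 0.05 for Col18a1 (0.889). The 5 members that fell were sparse: Col11a2, a chain of cartilage-type fibrils, fell from 2.48 ± 1.52 to 0.726 ± 0.997 CPM (−1.97 ± 0.43, adjusted p = 9.61e-04), Col27a1 from 5.02 to 1.71 CPM (−1.56 ± 0.35, adjusted p = 0.00124), Col20a1 from 1.40 to 0.622 CPM (−1.13 ± 0.20, adjusted p = 7.95e-05), and Col9a3 and Col13a1 by 0.96 and 0.81. Of 22 tested processing genes, 3 were called higher and 1 lower, beside 21.4% and 16.2% of all genes, with Plod2 at 0.80 ± 0.10. Of the 6 cross-linking genes Lox alone was called, at 1.19 ± 0.23. The difference between depots in the response of the members is given below with its own test. Fibroblast and progenitor markers in iWAT summed to a median of 3460 CPM on HFD and 2100 CPM on chow, and lymphocyte markers to 22.4 and 266 CPM. The part of either in the collagen differences was not tested. With the G+C and length trend removed, 11 members were called higher and 3 lower in iWAT (10.4% and 7.68% of all genes), Col1a2, Col4a1, Col4a2 and Col6a1 among the added ones.

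Single iWAT libraries carried much of the spread, and their collagens moved with other markers. C3Hn:C3Hmt HFD replicate 3 had the lowest levels of its group by far, with Col1a1 at 216 CPM against 687 and 694, Col4a1 at 240 against 1140 and 1410, Col5a3 at 110 against 861 and 886 and Col8a1 at 1.12 against 7.85 and 10.7. It was also the only library of its run, so its levels and its run cannot be told apart. The iWAT fit with run as a covariate in effect sets it aside. In this library the 6 lymphocyte markers summed to 1470 CPM, against 5.86 and 4.91 in the others of the group. Its adipocyte markers summed to 6620 CPM (25200 and 19800 in the others) and its fibroblast markers to 1000 CPM (2470 and 2380). The opposite held for C57n:C3Hmt chow replicate 1, whose Col4a1 was 1810 CPM against 487 to 623 in its group and whose lymphocyte sum was 13.7 CPM against 486 to 689. Without the former library, 19 members were called between diets, Col1a2 (0.34, edgeR adjusted p = 0.0284), Col4a1 (0.55, adjusted p = 0.0126) and Col6a1 (0.42, adjusted p = 0.0415) among them, and without the latter 19 as well. With the lymphocyte mean as a covariate, 5 were called higher and 7 lower (21.9% and 18.1% of all genes). Col5a2 (0.31, edgeR adjusted p = 0.101), Col6a3 (0.33, adjusted p = 0.0836), Col4a3 and Col12a1 lost the call. Col1a1 (−0.31, adjusted p = 0.0412) and Col5a3 (−0.49, adjusted p = 0.0275) gained one as lower.

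**Figure D3:**
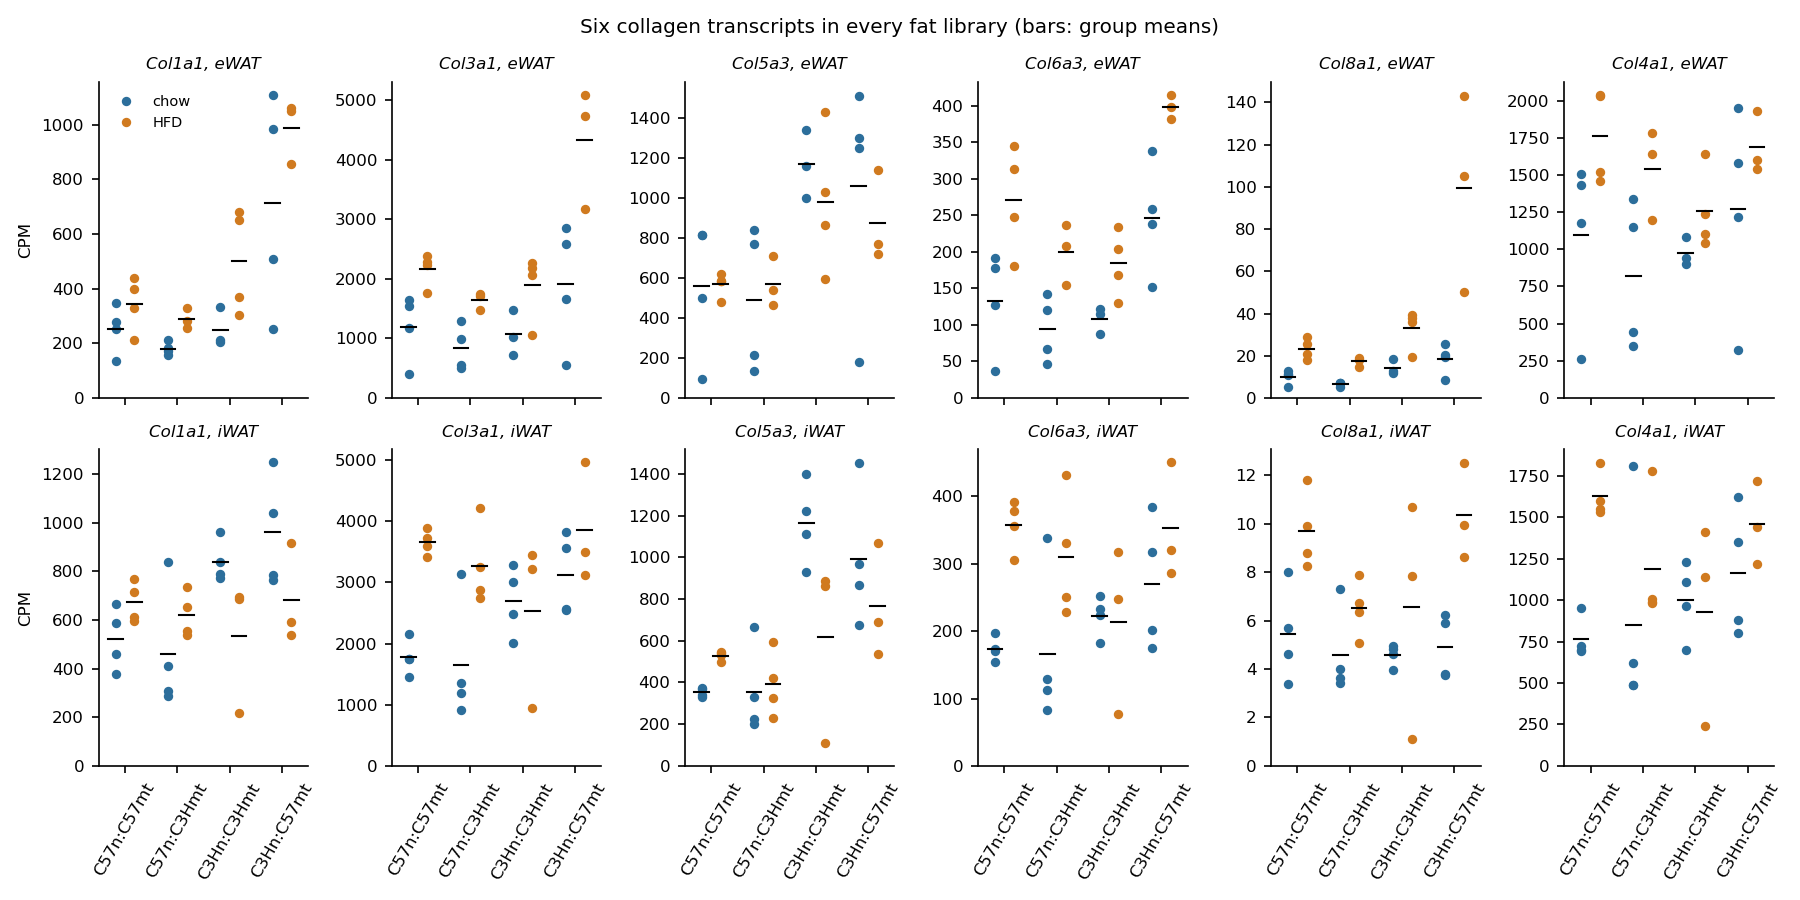
CPM of Col1a1, Col3a1, Col5a3, Col6a3, Col8a1 and Col4a1 in every eWAT and iWAT library, by genotype and diet (points are libraries, bars group means). C3Hn:C57mt on HFD is highest for Col1a1, Col3a1 and Col8a1 in eWAT (Col8a1 at 50.2, 105 and 143 CPM), and 1 iWAT C3Hn:C3Hmt HFD library lies far below the rest.

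Within genotypes, the diet difference was tested on 3 or 4 libraries against 3 or 4. In eWAT, 3 members were called higher and 2 lower in C57n:C57mt, 1 and 1 in C57n:C3Hmt, 2 and 0 in C3Hn:C57mt, and none in C3Hn:C3Hmt. Of all genes, 17.0%, 7.21%, 11.3% and 1.67% were called in the same order. In C3Hn:C3Hmt 7 members had an unadjusted edgeR p below 0.05, and DESeq2 called 4. Col8a1 was the member called higher in 3 genotypes, and in each of them all HFD libraries lay above all chow libraries. It rose by 1.21 ± 0.33 in C57n:C57mt (17.8 to 28.7 against 5.19 to 12.9 CPM), by 1.38 ± 0.35 in C57n:C3Hmt (14.8 to 18.9 against 5.1 to 7.27 CPM) and by 2.44 ± 0.35 in C3Hn:C57mt (50.2 to 143 against 8.49 to 25.7 CPM), with edgeR adjusted p values of 0.0163, 0.0277 and 4.02e-04. In C57n:C3Hmt the call of Col8a1 was lost in 4 fits that left out 1 library. It was also lost there with the G+C and length trend removed and with run as a covariate. Col12a1 (1.48 ± 0.41) and Col14a1 (1.04 ± 0.31) were called higher in C57n:C57mt and Col1a2 (1.03 ± 0.30) in C3Hn:C57mt. Without C57n:C57mt chow replicate 3, a library with epididymal RNA, 1 member was called in C57n:C57mt and 10 in C57n:C3Hmt, and without the 7 libraries with epididymal RNA the counts were 2 in C57n:C57mt, 8 in C3Hn:C3Hmt and 5 in C3Hn:C57mt.

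In iWAT, 4 members were called higher and 6 lower in C57n:C57mt, 3 and 4 in C57n:C3Hmt, 1 and 0 in C3Hn:C57mt, and none in C3Hn:C3Hmt, beside 16.7%, 16.5%, 7.71% and 4.88% of all genes. In C3Hn:C3Hmt 1 member had an unadjusted edgeR p below 0.05, and DESeq2 called 0. Col3a1 rose in both C57n lines, by 1.05 ± 0.34 (3410 to 3890 against 1450 to 2160 CPM, edgeR adjusted p = 0.0355) and by 0.99 ± 0.34 (2740 to 4220 against 908 to 3140 CPM, adjusted p = 0.046). The libraries did not overlap in C57n:C57mt and did in C57n:C3Hmt. Leaving out single libraries moved these counts by up to several fold: without C3Hn:C3Hmt HFD replicate 3, 20 members were called in C57n:C57mt, and without C57n:C3Hmt chow replicate 1, 18 were called in C57n:C3Hmt. Shares of all genes are not given for the within-genotype counts by DESeq2 or with libraries left out, in either depot. Those counts are not read as results about the members.

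Whether the nuclear background changed the response to diet was tested as an interaction. No member was called in either depot by edgeR. In eWAT 0% of all genes were called, 6 members had an unadjusted p below 0.05 and DESeq2 called 3. In iWAT 0.717% of all genes were called, 14 members had an unadjusted p below 0.05 and DESeq2 called 4. With the lymphocyte mean as a covariate, 7 members were called in iWAT, 6 of them with a more positive diet difference in C57n, and 11 were called without C57n:C3Hmt chow replicate 1. The shares of all genes in these alternatives and in DESeq2 are not given here. No member is therefore reported here as responding differently to diet by nucleus.

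Among the called members, the fat depots differed most in Col6a5, Col4a6 and Col8a2, which were higher in eWAT. On chow, 10 of 36 tested members were called higher and 7 lower in eWAT than in iWAT, where 18.9% and 14.4% of all 18325 genes were. On HFD the counts were 11 and 3, beside 10.1% and 13.0%. Median log2 differences were 0.37 on chow and 0.05 on HFD over the tested members, against 0.04 and −0.02 over all genes. The 20 animals that gave both depots enter these fits on both sides, and results with the animal as a block are given where they change a call. The fit with the block keeps only the libraries of these 20 animals.

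On chow 5 of the 10 tested fibrillar collagens, the chains of types I and III among them, were called lower in eWAT and 0 higher, while 4 of the 10 had a positive difference. Col1a1 stood at 356 ± 296 in eWAT and 696 ± 274 CPM in iWAT, a log2 difference of −1.16 ± 0.17 (edgeR adjusted p = 1.80e-06). Col1a2 differed by −1.12 ± 0.14 (medians of 399 and 1150 CPM, adjusted p = 6.06e-08) and Col3a1 by −0.91 ± 0.19 (1260 against 2310 CPM, adjusted p = 2.81e-04). In these genes the libraries of both depots overlap. Col11a2 (−1.73, adjusted p = 8.56e-04) and Col27a1 (−1.42, adjusted p = 0.00256) were the other members called. On HFD only Col1a2 was called among them (−0.56 ± 0.15, adjusted p = 0.00393); Col1a1 differed by −0.41 (adjusted p = 0.0978) and Col3a1 by −0.50 (adjusted p = 0.0688). With the animal as a block, Col5a1 was called higher in eWAT on HFD (0.80, adjusted p = 0.0139; 0.66 and 0.0602 without the block).

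Members called higher in eWAT came from several classes: 3 of 8 basement membrane genes on each diet, 1 of 4 type VI genes on chow and 3 on HFD, and 6 and 5 of the 14 tested other collagens. Col6a5, a chain whose human counterpart is known from skin, stood at 13.4, 40.4 and 111 CPM in eWAT on chow and at 1.12, 2.71 and 7.05 CPM in iWAT (lowest, median, highest). All 15 eWAT libraries lay above all 16 iWAT libraries, a log2 difference of 3.71 ± 0.25 (edgeR adjusted p = 4.38e-16), and on HFD the difference was 4.70 ± 0.28 (adjusted p = 1.57e-17), again without overlap. Col4a6 (6.75 ± 10.7 against 0.411 ± 0.205 CPM on chow, 3.71 ± 0.39, adjusted p = 5.91e-10) was also separate on chow. Col8a2 differed by 3.55 ± 0.33 on chow (4.28 against 0.335 CPM, adjusted p = 1.28e-11) and 3.14 ± 0.35 on HFD. Col8a1, the other chain of type VIII, differed by 1.23 ± 0.18 on chow (12.2 against 4.88 CPM, adjusted p = 1.49e-06) and 2.07 ± 0.20 on HFD (41.1 against 8.26 CPM, adjusted p = 4.52e-11). On HFD all eWAT libraries lay above all iWAT libraries for both type VIII chains.

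Further genes were called higher in eWAT on both diets: Col4a5 (1.06 on chow, 0.87 on HFD), Col12a1 (0.90 and 1.04), Col14a1 (0.59 and 0.87), Col16a1 (0.63 and 0.94) and Col18a1 (0.58 and 0.69). In the main fit Col6a1 and Col6a2 were called on HFD only (0.92 ± 0.22, 954 against 514 CPM, edgeR adjusted p = 0.00181, and 0.95 ± 0.24, 864 against 458 CPM, adjusted p = 0.00328). On chow they stood at 0.50 (adjusted p = 0.0566) and 0.50 (adjusted p = 0.0875). Col4a1 (0.12 on chow, adjusted p = 0.731; 0.29 on HFD, adjusted p = 0.419), Col4a2 (0.23, adjusted p = 0.506; 0.41, adjusted p = 0.268) and Col15a1 (0.55, adjusted p = 0.0897; 0.56, adjusted p = 0.13) did not pass on either diet. Col6a3 was lower in eWAT on chow (−0.61 ± 0.19, adjusted p = 0.0108) and not called on HFD (−0.27, adjusted p = 0.358). Without the libraries with epididymal RNA, Col6a1, Col6a2 and Col15a1 were called on chow too, and Col6a3, Col12a1 and Col16a1 lost their chow call. On HFD Col3a1, Col5a1 and Col15a1 gained a call in that fit. The test of whether the depot difference changed with diet called no member in edgeR (8 with an unadjusted p below 0.05), beside 0.0437% of all genes. DESeq2 called 0 members, beside 1.25% of all genes called higher and 2.25% lower. Calls that stand on 1 diet only are thus not shown to differ between diets.

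Some depot calls rested on which libraries entered. With the animal as a block, Col6a3 (−0.11, edgeR adjusted p = 0.754), Col7a1 (0.03) and Col10a1 (−2.52, adjusted p = 0.124) lost their call on chow, and on HFD Col15a1 gained one (0.73, adjusted p = 0.0178), as did Col5a1, and Col19a1 lost one (−1.87, adjusted p = 0.063). Without the libraries with epididymal RNA, 11 members were called higher and 12 lower on chow (12.9% and 15.6% of all genes), and Col7a1 changed direction, from 1.5 to −1.21; on HFD 13 were called higher and 6 lower (13.8% and 17.3%). With the G+C and length trend removed, 10 were called higher and 6 lower on HFD (10.5% and 13.3% of all genes). Marker lists differed strongly between depots: all 4 tested mesothelial markers were called higher in eWAT on both diets (summed CPM on chow 21.5 to 368 against 0 to 5), and all 6 lymphocyte, 4 Schwann cell and 5 skeletal muscle markers lower. Their part in the collagen differences was not tested.

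Among genes that act on collagen, 4 of 24 processing genes were called higher in eWAT on chow and 1 lower, beside 18.9% and 14.4% of all genes. The latter was Pcolce, the procollagen C-proteinase enhancer, at −1.19. Lox was lower in eWAT (−1.08), the gelatinase Mmp2 too (−1.40), while Plod2 (0.96) and Timp1 (1.31) were higher.

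Muscle differed from both fat depots in most collagens. Compared with eWAT on chow, 9 of 39 tested members were called higher and 23 lower in muscle, where 32.8% and 49.7% of all 18358 genes were. Compared with iWAT the counts were 11 and 22, beside 34.1% and 46.3%. Most genes of any kind differed between these tissues. Median log2 differences were −1.26 and −0.82 over the tested members and −0.51 and −0.32 over all genes. Col10a1 and Col25a1 did not pass the filter.

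Against both depots 9 members were called higher in muscle: the fibrillar Col2a1, Col11a1, Col11a2 and Col24a1, the fibril-associated Col9a1, Col9a2, Col19a1 and Col22a1, and Col7a1. Col22a1, known from the myotendinous junction, lay at 9.78, 12.4 and 18.4 CPM in muscle (lowest, median, highest of 16). In eWAT and iWAT on chow its highest library was at 0.197 and 0.296 CPM, so no library overlapped, and the log2 differences were 9.18 ± 0.56 (edgeR adjusted p = 1.62e-16) and 8.52 ± 0.50 (adjusted p = 5.28e-17). Col9a1 (4.24 ± 1.48 CPM in muscle; differences of 5.96 and 7.21) and Col11a2 (10.2 ± 2.82 CPM; 3.81 and 2.07) also lay above every fat library on chow. Col11a1 (5.40 ± 2.45 CPM; 3.47 and 4.63), Col19a1 (3.79 and 3.65), Col24a1 (3.13 and 3.61), Col2a1 (3.15 and 3.79), Col7a1 (1.63 and 3.10) and Col9a2 (2.42 and 1.35) were the others. Both type VIII chains were called higher than in iWAT. Col8a2, at 5.66 ± 1.64 CPM in muscle and 0.335 ± 0.141 CPM in iWAT, differed by 4.08 ± 0.30 (adjusted p = 1.60e-15), with every muscle library above every iWAT library. Col8a1, at 6.81 ± 1.55 and 4.88 ± 1.40 CPM, differed by 0.49 ± 0.15 (adjusted p = 0.00274). Against eWAT Col8a2 missed the threshold (0.55, adjusted p = 0.0522) and Col8a1 was called lower in muscle (−0.73, adjusted p = 2.91e-05). Without the libraries with epididymal RNA, Col8a2 was called against eWAT too. The tendon markers moved with these genes: all 5 were called higher in muscle than in either depot, with a summed level of 339 to 1030 CPM against 10.5 to 91.6 in eWAT and 6.55 to 23.1 in iWAT on chow. The 4 cartilage markers also summed to more in muscle, at 16.2 to 56.5 CPM (median 29.3) against 0.73 to 54.2 (median 3.6) in eWAT and 1.14 to 4.13 (median 2.13) in iWAT on chow. Of these, Comp was called higher in muscle than in either depot and Sox9 higher than in iWAT, while Acan and Matn1 did not pass the filter and Matn1 was at 0 in every muscle library. The part of these markers was not tested.

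Of the 8 basement membrane genes, 7 were called lower in muscle than in eWAT and 5 lower than in iWAT, and all 4 type VI chains were lower than in both. Col15a1 stood at 63.6 ± 10.5 CPM in muscle, below every chow library of both depots (differences of −3.29 ± 0.27 from eWAT and −2.74 ± 0.26 from iWAT), and Col18a1 at 18.9 ± 3.06 CPM, likewise below (−3.59 ± 0.19 and −3.01 ± 0.19). Col4a1 (196 ± 40.6 CPM; −2.37 ± 0.23 and −2.25 ± 0.23) and Col4a2 (138 ± 23.1 CPM; −2.31 ± 0.24 and −2.08 ± 0.24) were lower by similar amounts. Col4a3 was called against neither depot (−0.37 and −0.08, adjusted p = 0.152 and 0.786), and Col4a4 (−0.45, adjusted p = 0.0619) and Col4a6 (−0.51, adjusted p = 0.227) were not called against iWAT. The type VI differences from eWAT and iWAT were −2.05 and −1.55 for Col6a1, −2.0 and −1.5 for Col6a2, −1.35 and −1.97 for Col6a3, and −6.16 and −2.46 for Col6a5. Col5a3, the type V chain, stood at 53.1 ± 19.5 CPM, below every chow fat library (−3.86 ± 0.29 and −3.57 ± 0.29). Apart from Col4a3, Col4a4 and Col4a6, every edgeR adjusted p for the genes given values here was at most 1.26e-07.

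Type I collagen departed from this. Col1a1 in muscle, at 141, 268 and 451 CPM (lowest, median, highest), did not pass against eWAT (0.00, edgeR adjusted p of 1.0), nor did Col1a2 (0.26, adjusted p = 0.118), while Col3a1 was lower by −1.30 ± 0.20 (adjusted p = 2.04e-07). Against iWAT all 3 were lower: Col1a1 by −1.16 ± 0.18, Col1a2 by −0.87 ± 0.15 and Col3a1 by −2.22 ± 0.20. The ratio of Col1a1 to Col3a1 per kb of exon was 0.811 in muscle, 0.356 in eWAT and 0.386 in iWAT on chow. Per kb of the longest transcript it was 0.595, 0.262 and 0.283. Of the processing genes, 17 of those tested were called lower in muscle than in eWAT and 4 higher, beside 49.7% and 32.8% of all genes. Sparc, a collagen-binding matricellular protein, differed by −2.44 and Serpinh1, the collagen chaperone HSP47, by −2.07. Some calls changed with the libraries used. Col17a1, called lower than in eWAT at −2.04, stood at 0.10 and lost the call without the libraries with epididymal RNA. It also lost the call with the animal as a block (−0.88, edgeR adjusted p = 0.247). Col9a3, called lower than in iWAT, lost it with the block (−0.86, adjusted p = 0.0827). Without the libraries with epididymal RNA, Col4a4 also lost its call against eWAT, and Col8a2, Col13a1 and Col20a1 gained one. Against iWAT Col4a4 and Col20a1 gained one in that fit. With the block, Col4a4, Col12a1 and Col23a1 also lost their call against eWAT, and Col20a1 gained one against both depots. Some animals gave muscle and fat, and the block keeps only the libraries of animals that gave both tissues compared.

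Nuclear background was compared as C57n minus C3Hn, over both mitochondrial genomes. In fat, every member that was called was lower in C57n. In eWAT on chow, 0 of 35 tested members were called higher and 8 lower, where 8.0% and 7.11% of all genes were. In eWAT on HFD the counts were 0 and 8 (5.59% and 7.59% of all genes), in iWAT on chow 0 and 8 of 36 (5.70% and 6.01%) and in iWAT on HFD 0 and 4 (8.26% and 8.04%). Median log2 differences over the tested members were −0.40, −0.61, −0.54 and −0.11 in that order, and between −0.05 and 0.06 over all genes. In muscle 6 of 34 tested members were called higher and 4 lower, beside 17.1% and 16.5% of all genes, with a median of −0.07.

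Col1a1 was lower in C57n in 3 of the 4 fat conditions. In eWAT on chow it lay at 134, 197 and 348 CPM in C57n (lowest, median, highest of 8) and at 206, 333 and 1110 CPM in C3Hn (of 7), a log2 difference of −0.99 ± 0.26 (edgeR adjusted p = 0.0154). This call rests on C3Hn:C3Hmt chow replicate 2, without which it was −0.84 (adjusted p = 0.0675). On HFD the levels were 212, 328 and 438 CPM in C57n and 304, 682 and 1060 CPM in C3Hn (−1.18 ± 0.28, adjusted p = 0.00594). In iWAT on chow they were 289, 436 and 838 CPM against 764, 814 and 1250 CPM (−0.86 ± 0.22, adjusted p = 0.0109). On HFD in iWAT no such difference was seen (647 ± 85.5 in C57n and 607 ± 231 CPM in C3Hn, 0.10, adjusted p = 0.806). Col1a2 was called in eWAT on HFD (−0.76 ± 0.21, 647 against 1090 CPM, adjusted p = 0.0203) and iWAT on chow (−0.84 ± 0.20, 758 against 1360 CPM, adjusted p = 0.00629), and stood at −0.51 in eWAT on chow (adjusted p = 0.0874). Col3a1 was called in iWAT on chow alone (−0.75 ± 0.24, 1710 against 2910 CPM, adjusted p = 0.0398); in eWAT it stood at −0.53 on chow (adjusted p = 0.249) and −0.62 on HFD (adjusted p = 0.227).

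Among the type V and type VIII chains, Col5a3 was called in iWAT on chow and Col8a1 in eWAT on both diets, and Col5a1 and Col8a2 in no fat condition. Col5a3 in iWAT on chow lay at 200, 334 and 664 CPM in C57n and at 675, 1040 and 1450 CPM in C3Hn, and all 8 C57n libraries lay below all 8 C3Hn libraries. Its log2 difference was −1.59 ± 0.31 (edgeR adjusted p = 7.20e-04). With run as a covariate, Col5a3 was also called lower in C57n in iWAT on HFD (−0.91, edgeR adjusted p = 0.0115). That fit in effect sets aside iWAT C3Hn:C3Hmt HFD replicate 3. In muscle the direction was the other: 64.9 ± 14.9 CPM in C57n against 41.2 ± 16.5 in C3Hn (0.64 ± 0.22, adjusted p = 0.0314). Col8a1 was lower in C57n in eWAT on both diets, at 5.1, 7.19 and 12.9 CPM against 8.49, 18.5 and 25.7 CPM on chow (−1.0 ± 0.24, adjusted p = 0.00756) and at 14.8, 18.9 and 28.7 CPM against 19.3, 39.3 and 143 CPM on HFD (−1.54 ± 0.25, adjusted p = 1.93e-04). On each diet a few libraries of the backgrounds overlap. In iWAT Col8a1 stood at means of 5.01 and 4.75 CPM on chow and 8.10 and 8.47 CPM on HFD and was not called.

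On chow 2 of 4 type VI and 1 of 8 basement membrane genes were called in eWAT, and 0 of 4 and 2 of 8 in iWAT. In eWAT Col6a1 (402 ± 206 against 835 ± 410 CPM, −1.05 ± 0.33, edgeR adjusted p = 0.0329) and Col6a2 (390 against 835 CPM, −1.08 ± 0.36, adjusted p = 0.0458) were called, with Col18a1 (170 ± 51.2 against 318 ± 107 CPM, −0.91 ± 0.24, adjusted p = 0.013); Col6a3 was not (−0.55, adjusted p = 0.168). In iWAT Col18a1 (108 ± 66.5 against 219 ± 48.5 CPM, −1.02 ± 0.31, adjusted p = 0.0349) and Col4a5 (−0.94 ± 0.24, adjusted p = 0.0106) were called, and Col6a1 (−0.74, adjusted p = 0.0728), Col6a2 (−0.81, adjusted p = 0.0703), Col6a3 (−0.52, adjusted p = 0.214) and Col15a1 (−0.93, adjusted p = 0.0509) were not. On HFD none of these passed in either depot: in eWAT the differences were −0.14 for Col6a1 (adjusted p = 0.854), −0.09 for Col6a2, −0.24 for Col6a3, −0.06 for Col15a1 and −0.19 for Col18a1. Col4a1 and Col4a2 were called in no fat condition, at −0.24 and −0.40 in eWAT on chow (adjusted p = 0.661 and 0.458), 0.16 and 0.05 in eWAT on HFD (0.837 and 0.963) and −0.41 and −0.61 in iWAT on chow (0.391 and 0.246). Col15a1 stood at −0.61 in eWAT on chow (adjusted p = 0.311).

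The other called members were as follows. In eWAT on chow Col5a2 (−1.05, 139 against 293 CPM), Col12a1 (−1.19) and Col14a1 (−0.69) were lower in C57n. In eWAT on HFD Col12a1 was lower again (−1.10), as were the sparse Col10a1 (−3.70), Col11a1 (−3.84), Col13a1 (−1.65) and Col24a1 (−4.43 ± 1.0, 0.0837 against 2.08 CPM, edgeR adjusted p = 0.00401). In iWAT on chow Col5a2 (−0.91) and Col14a1 (−1.05) were lower. In iWAT on HFD the 4 called members were sparse as well: Col10a1 (−1.83), Col11a2 (−2.17), Col13a1 (−0.79) and Col17a1 (−1.70), while the 10 abundant members of the major chains lay between 0.00 (Col18a1) and 0.41 (Col6a1). With run as a covariate in iWAT on HFD, Col11a2 (−1.35, edgeR adjusted p = 0.185) and Col17a1 (−1.66, adjusted p = 0.0691) lost their call. Col24a1 and Col11a1 are minor fibrillar chains, and Col10a1 is the collagen of hypertrophic cartilage.

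**Figure D4:**
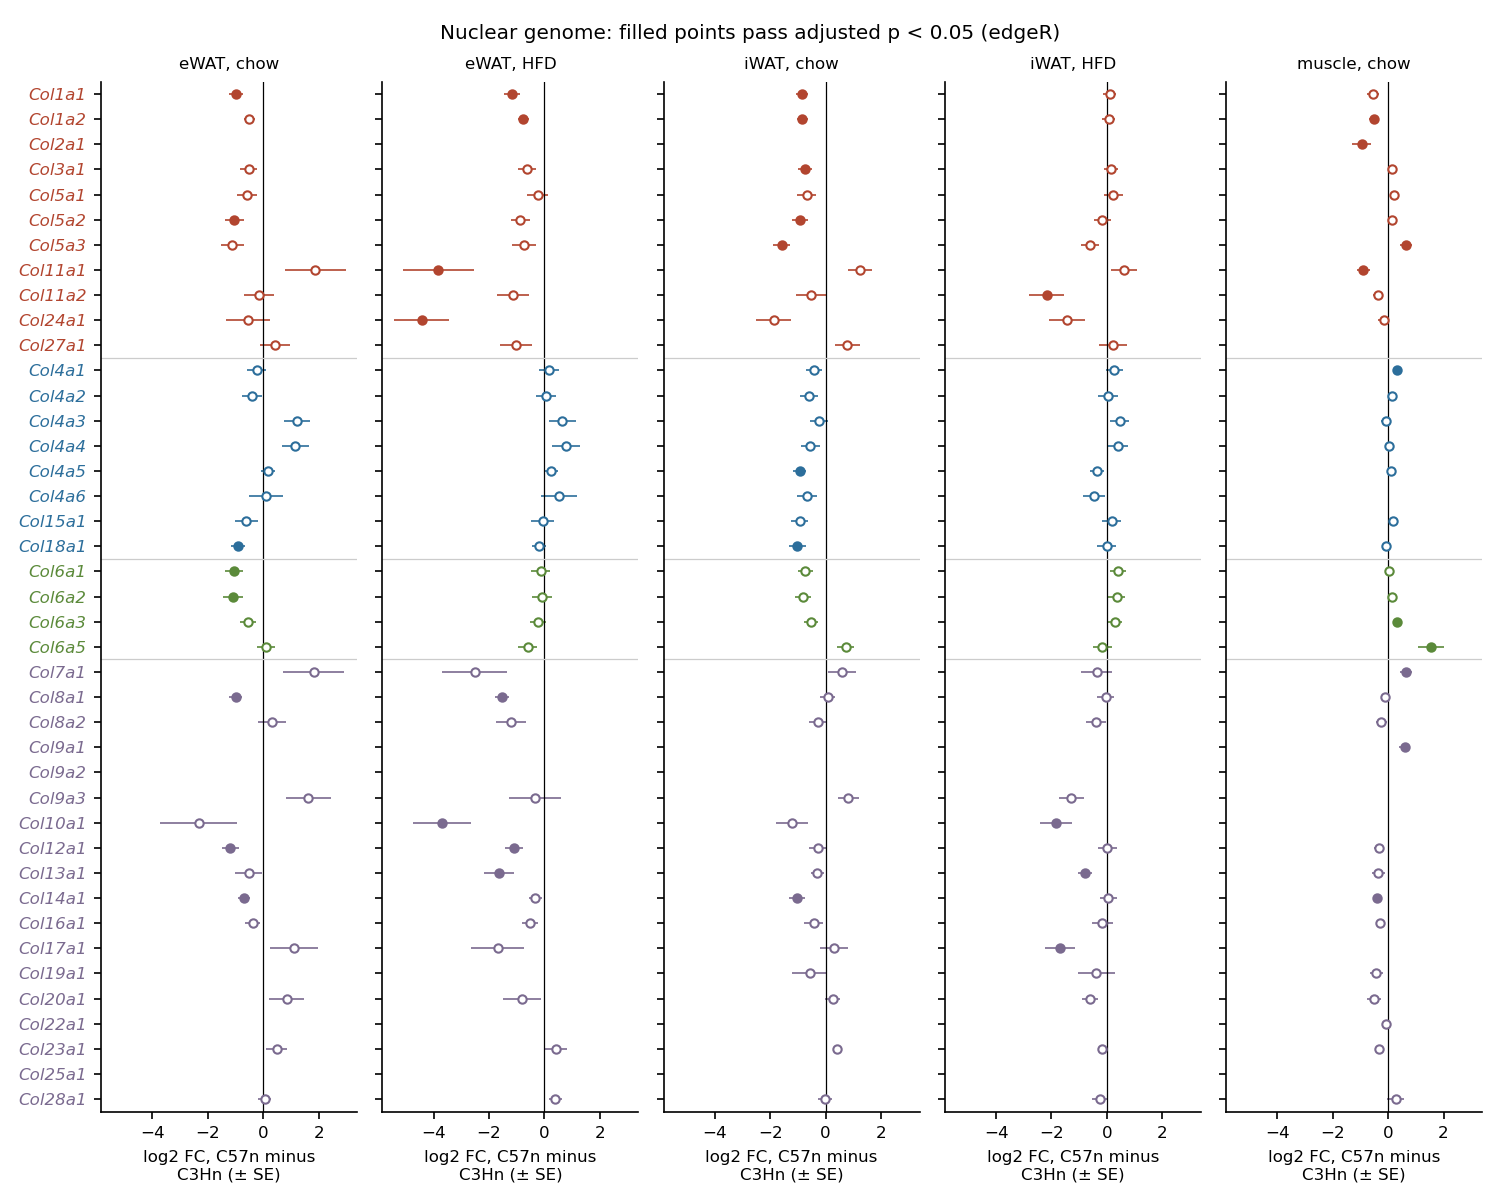
Log2 difference between C57n and C3Hn for each tested collagen gene in 5 comparisons (eWAT and iWAT on chow and HFD, muscle on chow; bars are 1 SE, filled points have an edgeR adjusted p below 0.05). Filled points lie left of 0 in every fat panel, Col5a3 at −1.59 in iWAT on chow, and on both sides in muscle, where Col5a3 is at 0.64.

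These counts moved with single libraries and with marker content. In eWAT, 3 of the 6 macrophage markers were lower in C57n on both diets. Other marker sums there lay the other way. Fibroblast markers had medians of 1770 CPM in C57n and 1640 CPM in C3Hn on chow, and 2470 and 1900 CPM on HFD. Endothelial markers had medians of 582 and 435 CPM on chow, and 606 and 308 CPM on HFD. In iWAT on chow, adipocyte markers summed to a median of 14600 CPM in C57n and 20500 CPM in C3Hn. Fibroblast markers there had medians of 1880 and 2180 CPM and lymphocyte markers of 449 and 220 CPM, all with overlapping libraries. In iWAT on HFD fibroblast markers summed to 3410 to 5560 CPM in C57n, above the 1000 to 2520 CPM in C3Hn. The part of these markers was not tested. Without the libraries with epididymal RNA, 0 members were called higher and 11 lower in eWAT on chow (5.73% and 7.25% of all genes), 7 of them also called among all libraries, and on HFD 3 were called higher and 11 lower (13.6% and 15.4%), Col3a1, Col5a2 and Col5a3 among the added ones. Leaving out single libraries gave 3 (without C3Hn:C3Hmt chow replicate 2) to 15 (without C3Hn:C57mt chow replicate 2) called members in eWAT on chow and 3 (without C57n:C3Hmt HFD replicate 1) to 9 on HFD. In iWAT on chow, 17 were called without C57n:C3Hmt chow replicate 1, and with the lymphocyte mean as a covariate 12 were called lower and 1 higher (6.82% and 6.63% of all genes). In iWAT on HFD 1 was called without C3Hn:C57mt HFD replicate 2. The calls of Col6a2 and Col14a1 in eWAT on chow, of Col11a1 and Col13a1 in eWAT on HFD and of Col3a1, Col5a2 and Col18a1 in iWAT on chow each ended in 10 or more of the fits that left out 1 library, with adjusted p values of 0.0502 to 0.218 there. In those fits Col3a1 stood at −0.76 to −0.65 and Col6a2 at −1.10 to −0.91.

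In muscle, Col1a2 (462 ± 128 against 656 ± 156 CPM, −0.52 ± 0.18, edgeR adjusted p = 0.0302), Col11a1 (3.79 against 7.0 CPM, −0.89 ± 0.24, adjusted p = 0.00852), Col2a1 (−0.96) and Col14a1 (−0.40) were lower in C57n, and Col1a1 missed the threshold (245 ± 85.3 against 355 ± 96.4 CPM, −0.55, adjusted p = 0.0538). The tendon markers moved with these genes: 4 of 5 were called lower in C57n, with summed levels of 339 to 607 CPM (median 441) against 562 to 1030 CPM (median 747) in C3Hn, and the 4 cartilage markers summed to 16.2 to 29.3 CPM (median 23.2) against 29.2 to 56.5 CPM (median 40.3), with Comp called lower and Sox9 not called. The part of either was not tested. Col4a1 (219 ± 31.7 against 173 ± 36.0 CPM, 0.33 ± 0.12, adjusted p = 0.0363), Col6a3 (0.32, adjusted p = 0.0345), Col6a5 (1.56), Col7a1 (0.65) and Col9a1 (0.60) were higher in C57n, beside Col5a3. Col3a1 (0.15, adjusted p = 0.401), Col4a2 (0.15), Col6a1 (0.03), Col6a2 (0.13), Col15a1 (0.18) and Col18a1 (−0.06) did not pass. Of these 10 calls, 8 were lost in some fit that left out 1 library (Col1a2 with −0.51 to −0.45, Col5a3 with 0.54 to 0.63); Col6a5 and Col11a1 were not.

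A test of whether the nuclear difference on chow differed between muscle and fat was added after the values were seen. It called 3 of 39 tested members for muscle and eWAT (10.9% of all genes) and 2 for muscle and iWAT (5.14%). Col5a3 was called in both, with a nuclear difference that lay higher in muscle than in eWAT by 1.76 ± 0.53 (edgeR adjusted p = 0.0274) and than in iWAT by 2.24 ± 0.52 (adjusted p = 0.00725). Col8a1 (0.89 ± 0.30, adjusted p = 0.045) and Col2a1 (−4.93 ± 1.33, adjusted p = 0.0135) were called against eWAT and Col4a5 against iWAT (1.06 ± 0.30, adjusted p = 0.0311). Each of these 3 lost its call without some single library, Col2a1 without C57n:C57mt chow replicate 3 (−1.61, adjusted p = 0.306) or C57n:C3Hmt chow replicate 4 (−4.47, adjusted p = 0.0635).

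Exchange of the mitochondrial genome on a fixed nucleus was the contrast the mice were made for. None of the 10 comparisons of an MNX line with its wild type called a collagen gene in edgeR, and 0.00181% of all tests did. By unadjusted p below 0.05, the members numbered 6 in C57n and 12 in C3Hn in eWAT on chow, 0 and 10 in eWAT on HFD, 0 and 0 in iWAT on chow, 1 and 5 in iWAT on HFD, and 2 and 1 in muscle. DESeq2 called 10 over all 10 comparisons. The shares of all genes for these counts, and for the other counts by unadjusted p, are not given here. None of those counts is read as a result about the members. The nearest to the threshold in edgeR was Col8a1 in C3Hn mice in eWAT on HFD: C3Hn:C57mt lay at 50.2, 105 and 143 CPM and C3Hn:C3Hmt at 19.3, 35.9, 38.1 and 39.3 CPM, with all of the former above all of the latter, a log2 difference of 1.58 ± 0.35 and an adjusted p of 0.0996. Col1a2 was next in the same comparison, at 1200, 1760 and 1840 CPM against 439, 753, 818 and 832 CPM (1.17 ± 0.30, adjusted p = 0.129). In that comparison 11 of the 35 tested members had every C3Hn:C57mt library above every C3Hn:C3Hmt library, as did 7.27% of all tested genes, and the median over the 35 tested was 0.43, against −0.04 over all genes. There Col3a1 was at 3170, 4740 and 5080 CPM against 1060, 2070, 2190 and 2270 CPM. In C3Hn mice in eWAT on chow 32 of the 35 tested members had higher fitted values with C57mt (median 0.92, against 0.05 over all genes), and 6 of the 35 lay above without overlap, as did 4.33% of all tested genes; of the 4 C3Hn:C57mt libraries there, replicates 2 and 4 held epididymal RNA. Without the libraries with epididymal RNA, 2 members were called over the 10 comparisons. Whether mitochondrial exchange changed the diet response was tested in 4 comparisons, which called no member in edgeR and 0% of all tests; 3 and 7 members had an unadjusted p below 0.05 in eWAT of C57n and C3Hn and 0 and 0 in iWAT, and DESeq2 called 1. No difference between mitochondrial genomes in a collagen gene passed the threshold of the main test.

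Chains that assemble into the same molecule were compared library by library, as deviations of log2(CPM + 0.5) from the group mean, over 21 relations with permutation p values. Col4a1 and Col4a2, which together make the common type IV trimer, had Pearson r of 0.985 in eWAT (n = 29), 0.996 in iWAT (n = 30) and 0.953 in muscle (n = 16). These genes lie head to head on chromosome 8, with annotated transcripts that overlap by 22 bases at their starts. Col1a1 and Col1a2, on chromosomes 11 and 6, reached 0.92, 0.962 and 0.994 (Spearman rho 0.915, 0.903 and 0.982). Col6a1 and Col6a2, 85.2 kb apart on the same strand, reached 0.997, 0.986 and 0.904. Leaving out the 2 libraries farthest from the median of the first-named chain gave r of 0.881, 0.928 and 0.99 for Col1a1 and Col1a2. Every permutation p of these 9 relations was at most 1e-05, the smallest the permutations can give, or 1.40e-05 after Benjamini-Hochberg adjustment over the 21.

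Other partners gave more varied values. For Col8a1 and Col8a2 r was −0.132, 0.132 and 0.03 in eWAT, iWAT and muscle (permutation p of 0.497, 0.483 and 0.91). Without the libraries with epididymal RNA the eWAT value was 0.539 (n = 22, permutation p = 0.0116, adjusted 0.0143; Spearman rho 0.372, permutation p = 0.0885), and it fell to 0.153 when the 2 libraries farthest from the median of Col8a1 were left out as well, so that relation rests on those 2 libraries. Col6a1 and Col6a3 had r of 0.627 in eWAT (permutation p = 7.30e-04, adjusted 9.02e-04) and 0.947 and 0.944 in iWAT and muscle. Col4a3 and Col4a4, head to head 71 bases apart on chromosome 1, had r of 0.915 and 0.896 in fat and 0.331 in muscle (permutation p = 0.21), where both were at about 2 CPM. Col5a1 and Col5a2 had r of 0.909, 0.941 and 0.805. Without the libraries with epididymal RNA their eWAT value was 0.504 (n = 22, permutation p = 0.0149, adjusted 0.0173), and that of Col4a3 and Col4a4 was 0.787. Within diet, r for Col1a1 and Col1a2 in eWAT was 0.971 on chow and 0.798 on HFD, for Col4a1 and Col4a2 0.99 and 0.951, for Col5a1 and Col5a2 0.985 and 0.399, and for Col8a1 and Col8a2 −0.481 and 0.372. In iWAT the first 2 of these relations held within both diets (0.978 and 0.947, 0.994 and 0.998). Libraries share marker content as well as partners: the 40 relations among the 10 abundant members that are not chains of the same molecule had a median r of 0.827 in eWAT, 0.94 in iWAT and 0.764 in muscle, so a high r alone sets a partner apart little.

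**Figure D5:**
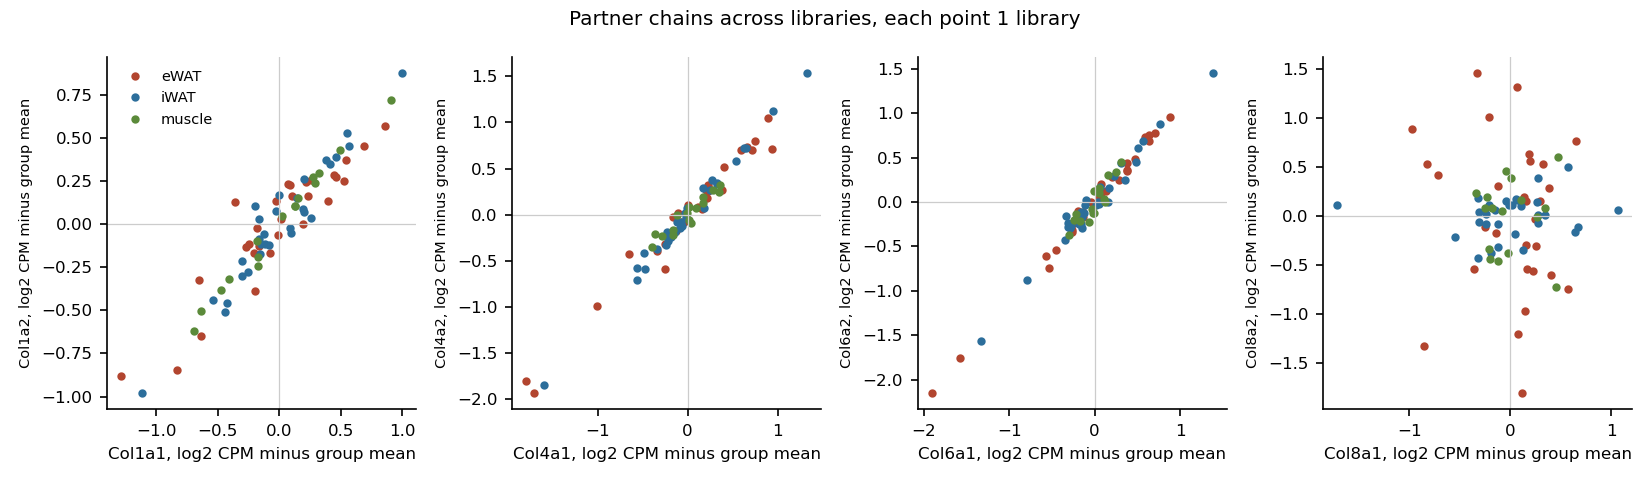
Deviation of log2(CPM + 0.5) from the group mean for 2 chains of the same molecule, 1 point a library, in eWAT, iWAT and muscle: Col1a1 against Col1a2, Col4a1 against Col4a2, Col6a1 against Col6a2 and Col8a1 against Col8a2. The first 3 panels form narrow diagonals (r of at least 0.904), and the type VIII panel does not (r of −0.132 in eWAT, or 0.539 without the libraries with epididymal RNA).

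Levels of partner chains were compared per kilobase of exon. The ratio of Col1a1 to Col1a2 was 1.18 ± 0.303 in eWAT on chow and 1.07 ± 0.245 on HFD, 1.21 ± 0.0794 in iWAT on chow and 0.945 ± 0.102 on HFD, and 0.98 ± 0.0598 in muscle. The type I molecule holds more of the former chain than of the latter. These ratios depend on the length used: per kilobase of the longest transcript they were 0.576 in eWAT on chow, 0.591 in iWAT on chow and 0.478 in muscle. Per kilobase of exon, Col4a1 to Col4a2 lay between 1.37 in muscle and 1.78 in iWAT on HFD, and Col6a1 to Col6a2 between 1.88 in muscle and 2.19 in iWAT on HFD. By the longest transcript the latter lay between 1.19 in muscle and 1.38 in iWAT on HFD. The ratio of Col6a1 to Col6a3 per kilobase of exon differed most, at 11.7 in eWAT and 5.26 in iWAT on chow, with 7.04 in muscle. By the longest transcript it was 9.42, 4.24 and 5.69.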

How the data were processed

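The deposited gene tables hold expected counts per gene and library, made by the authors with RSEM on mm9 (no version given), per the submitters' processing notes, which also name DESeq2 1.10.1. Mapping used a proprietary method of a service company, per the labels. The authors' library quality tables give percent values, such as the G+C content of aligned reads, and were used only to describe the libraries. There were 22423 genes on chow and 21983 on HFD, with 67.9% and 68.1% of values whole before rounding; the 21625 genes in both were used.

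Expected counts were rounded and tested with edgeR 4.0.16 (R 4.3.3): TMM scaling, the default filter on low counts (minimum count 10, minimum total 15, minimum share of libraries 70%) and the quasi-likelihood test, with p adjusted by Benjamini-Hochberg over all genes tested. Each tissue was fitted with all of its groups. Depots were compared in a joint fit of 59 fat libraries, and muscle against fat in a joint fit of 47 chow libraries. Fold changes use edgeR's default prior count. A prior count of 2 was used only for the log2 CPM behind the G+C and length trend and the lymphocyte mean. Standard errors are the absolute log2 difference divided by the square root of F. CPM uses library totals scaled by TMM. DESeq2 1.42.0, no filter, removal of a G+C and length trend (splines of 5 degrees of freedom), run, the mean of the lymphocyte markers, the animal as a replicate block, and leaving out libraries were alternatives; libraries with epididymal RNA were those above 10 times the median of the summed epididymis markers (59.2 CPM, without TMM scaling). Partner chains used log2(CPM + 0.5) and 100000 permutations (scipy 1.17.1). The scripts were tested on simulated data.

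Animal identifiers in the titles pair eWAT and iWAT libraries of 20 animals. Replicate numbers count libraries within a group and do not match animals between tissues. Labels do not say whether other replicates came from separate cages or litters; p-values measure the spread between these libraries. No 2 replicates agreed within sampling noise (lowest chi-square per gene 7.31). The genes given values in each comparison were Col1a1, Col1a2, Col3a1, Col4a1, Col4a2, Col6a1, Col6a2, Col6a3, Col15a1 and Col18a1, with up to 3 called members of each class having the largest rise and fall; other named members were chosen after their values were seen. The members and gene lists were chosen with earlier results of these data known. Positions of genes are from mm9 and promoters from GRCm38.p6.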

Additional observations from a re-analysis of the deposited data

Results flagged for a closer look

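In 15 groups of 4 libraries, the levels of 10 abundant collagen genes were searched for a library far from the other 3 (Dixon's test at its 95% critical value). Of 150 gene-by-group sets 17 were flagged, where chance flags about 5%. The sets are not independent, since most flags fall on 3 iWAT libraries.

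In iWAT C57n:C3Hmt chow replicate 1, levels were high for Col4a1 at 1810 CPM (others 487 to 623), Col4a2 at 1190 CPM (250 to 346), Col6a1 at 636 CPM (141 to 200), Col6a2 at 651 CPM (129 to 196), Col15a1 at 697 CPM (159 to 212) and Col18a1 at 260 CPM (52.7 to 78.7). Its lymphocyte markers summed to 13.7 CPM, against 486 to 689 in its group, and its fibroblast markers to 3900 CPM, against 1210 to 1870. In iWAT C57n:C3Hmt HFD replicate 4, Col4a1 was 1780 CPM (983 to 1010), Col4a2 928 CPM (460 to 493), Col6a1 679 CPM (421 to 427), Col6a2 593 CPM (326 to 359) and Col18a1 208 CPM (104 to 121). Its lymphocyte sum, 52.7 CPM, lay among those of its group. In iWAT C57n:C57mt chow replicate 2, Col4a1 was 955 CPM (691 to 721), Col4a2 548 CPM (379 to 407) and Col18a1 140 CPM (84.2 to 92.1), with a lymphocyte sum of 14.7 CPM against 275 to 568. The part of the markers in these values was not tested.

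Low values were flagged in eWAT. Col1a2 was 259 CPM in C57n:C57mt chow replicate 3 (others 547 to 601), a library whose epididymis markers summed to 18700 CPM, and Col3a1 was 1060 CPM in C3Hn:C3Hmt HFD replicate 1 (others 2070 to 2270), whose epididymis markers summed to 10700 CPM (both sums without TMM scaling). In muscle, Col6a2 was 155 CPM in C3Hn:C3Hmt replicate 4 (others 112 to 116).

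The nuclear difference on chow differed between tissues by its own test for 5 results. Between muscle and eWAT these were Col2a1 (−4.93), Col5a3 (1.76) and Col8a1 (0.89), and between muscle and iWAT Col4a5 (1.06) and Col5a3 (2.24), each the log2 difference in muscle minus that in fat. Col2a1 is sparse in fat, at a mean of 0.769 CPM in eWAT and 0.0594 CPM in iWAT on chow.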

How the results depend on the processing

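Over all alternatives but those that left out 1 library, values of single genes kept their call or lack of one 1093 times. They gained a call 36 times, lost it 48 times and reversed 2 times. Values called neither way changed sign 16 times. Run for the nuclear and within-genotype results, leaving out libraries with epididymal RNA for depots, muscle and mitochondrial exchange, and nucleus by tissue were chosen after seeing the data. Numbers of called members that moved by over 1.5 times were as follows. They are given without the shares of all genes and are not read as results about the members. For diet in eWAT, DESeq2 called 6 members in C3Hn:C57mt, 4 in C3Hn:C3Hmt and 11 in C57n:C3Hmt. It called 3 for diet by nucleus in eWAT and 4 in iWAT, 13 for nucleus in iWAT on chow, 7 for nucleus by tissue in muscle and eWAT, 10 for mitochondrial exchange and 1 for diet by mitochondrial genome. Without the filter the diet count was 1 in eWAT of C57n:C3Hmt, 5 in iWAT of C57n:C57mt and 0 in iWAT of C3Hn:C57mt. With the G+C and length trend removed it was 0 in eWAT of C57n:C3Hmt, 1 in eWAT of C3Hn:C57mt, and in iWAT 0 in C3Hn:C57mt, 4 in C57n:C57mt and 2 in C57n:C3Hmt, with 13 for nucleus in iWAT on chow and 5 for nucleus by tissue in muscle and eWAT. With run as a covariate, diet in eWAT called 7, 0 in C57n:C3Hmt and 1 in C3Hn:C57mt; in iWAT 3 in C57n:C57mt and 3 in C3Hn:C57mt, and nucleus in iWAT on chow 14. With the lymphocyte mean, diet in iWAT called 3 in C57n:C57mt, 3 in C3Hn:C3Hmt and 2 in C3Hn:C57mt, nucleus on chow 13 and diet by nucleus 7. Without the libraries with epididymal RNA, diet in eWAT called 2 in C57n:C57mt, 8 in C3Hn:C3Hmt and 5 in C3Hn:C57mt, nucleus in eWAT on HFD 14, nucleus by tissue 9 (eWAT) and 13 (iWAT), and mitochondrial exchange 2. There Col7a1 between depots on chow was −1.21, Col17a1 between muscle and eWAT was 0.10, and r of Col8a1 and Col8a2 in eWAT was 0.539. With the longest transcript as length, Col1a1 to Col1a2 was 0.576, 0.591 and 0.478 in eWAT and iWAT on chow and muscle. The causes were not tested.

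Leaving out 1 library gave 3 to 15 called members for nucleus in eWAT on chow, 3 to 9 on HFD, 5 to 17 in iWAT on chow, 1 to 5 on HFD and 5 to 11 in muscle. For diet it gave 11 to 19 in iWAT, and by genotype (C57n:C57mt, C57n:C3Hmt, C3Hn:C3Hmt, C3Hn:C57mt) 1 to 6, 0 to 10, 0 to 3 and 1 to 4 in eWAT and 2 to 20, 3 to 18, 0 to 0 and 0 to 3 in iWAT. Diet by nucleus in iWAT gave 0 to 11, nucleus by tissue 1 to 14 (eWAT) and 1 to 11 (iWAT), and mitochondrial exchange 0 to 1.

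The animal as a replicate block keeps only the libraries of animals that gave both tissues compared. It thus differs from the main fit in its libraries as well as in the block. With it, depots differed in 14 members on chow and 15 on HFD, muscle and eWAT in 29 and muscle and iWAT in 33. The calls it changed among named genes are given with the results. Depth ranged from 15.75 to 31.48 M expected counts, so members under about 1 CPM carry the widest errors.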
